A study of Mus musculus with 12 samples.

Results

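Extracellular vesicles (EVs) of adipose tissue were compared with hippocampus in chow-fed mice, as 3 small RNA libraries of each, of 12 libraries in the series. All mice were male, wild-type C57BL/6J animals, and the chow had been eaten for 12 weeks. The sources used here do not give the fat depot, how the vesicles were isolated or how old the mice were. The other 6 libraries, 3 of EVs and 3 of hippocampus, came from mice on a high-fat diet (HFD). They were fitted together with the chow libraries, and so entered the filter, scaling and spread estimate of the main comparison. In fits of each diet alone they serve as separate samples of the same sample types. Counts were deposited as 1 table for EVs and 1 for hippocampus, and the comparison was made over the 852 miRNAs that both tables list, of 1084 in the EV table and 1163 in the hippocampus table. The hippocampus columns taken as chow are headed LFD, which is an inference from their numbers and from chow being the other diet. The labels number the libraries without saying that each came from its own animal, so the p-values rest on spread between samples that may be technical in part.

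A miRNA is cut as a short duplex from the arms of an RNA hairpin, and 1 strand is usually kept in an Argonaute protein while its partner is lost. Bases 2 to 8 from the 5′ end, the seed, pair with target messenger RNAs, so miRNAs with the same seed share many predicted targets. Cells release a portion of their miRNAs inside or attached to EVs, and adipose tissue is known as a source of miRNAs that circulate in blood. The hippocampus is a brain region rich in neurons and glia, whose miRNAs include several that are little made outside the nervous system.

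The mature sequences of the miRNAs on which the comparison turned are given below, 5′ to 3′, with the seed in capitals (RefSeq, GRCm38.p6). The first 3 share a seed, and their leading member is the most abundant miRNA in EVs.
miR-148a-3p: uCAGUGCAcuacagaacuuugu
miR-152-3p: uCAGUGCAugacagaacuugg
miR-148b-3p: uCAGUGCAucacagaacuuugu
Both miR-10 miRNAs come from Hox gene clusters and are the next most abundant in EVs.
miR-10a-5p: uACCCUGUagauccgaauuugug
miR-10b-5p: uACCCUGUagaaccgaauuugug
The next 3 share a seed and went in different directions.
miR-99a-5p: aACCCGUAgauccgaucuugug
miR-100-5p: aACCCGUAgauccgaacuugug
miR-99b-5p: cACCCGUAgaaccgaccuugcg
The epithelial miR-200 family has 2 seeds.
miR-141-3p: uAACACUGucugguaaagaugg
miR-200a-3p: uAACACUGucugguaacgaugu
miR-200c-3p: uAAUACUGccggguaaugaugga
miR-200b-3p: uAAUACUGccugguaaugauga
miR-429-3p: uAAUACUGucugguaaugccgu
Next come 3 that were far higher in EVs and uneven among the EV libraries.
miR-215-5p: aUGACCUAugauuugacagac
miR-465c-5p: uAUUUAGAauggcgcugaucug
miR-871-3p: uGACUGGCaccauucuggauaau
The miR-9-5p row leads the hippocampus, and miR-9b-3p is its reverse complement over 21 bases, from a hairpin on the opposite strand.
miR-9-5p: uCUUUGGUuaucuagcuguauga
miR-9b-3p: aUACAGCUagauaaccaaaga
Other miRNAs that were almost absent from EVs or marked the hippocampus were these.
miR-128-3p: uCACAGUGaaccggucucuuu
miR-218-5p: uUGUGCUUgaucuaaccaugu
miR-137-3p: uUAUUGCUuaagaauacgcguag
miR-873a-5p: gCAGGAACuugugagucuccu
miR-219b-5p: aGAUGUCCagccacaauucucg
miR-1298-5p: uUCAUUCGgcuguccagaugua
miR-127-3p: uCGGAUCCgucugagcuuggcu
Both arms of miR-335 are shown because the leading arm differed between the sample types.
miR-335-5p: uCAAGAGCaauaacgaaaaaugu
miR-335-3p: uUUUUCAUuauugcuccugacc

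Chow EV libraries held 2120171 to 2294878 counts and chow hippocampus libraries 2331091 to 5723921. The shared miRNAs took at least 99.88% of every library. Levels below are in CPM, counts scaled to a common library size after TMM normalisation. A floor of 3 counts in 1 library corresponds to 1.38 to 2.15 CPM for EVs, and for hippocampus it lies between 0.586 and 1.17 CPM. The labels of both sample types were checked against marker miRNAs. The neuron list took 0.189% to 0.330% of each EV library and 32.1% to 35.2% of each hippocampus library, and without miR-9-5p 0.171% to 0.317% and 6.54% to 11.4%. The list tied to fat cells took 38.0% to 60.0% of EV libraries and 4.39% to 7.45% of hippocampus libraries, but this rests on miR-148a-3p: without it, a step chosen after the shares were seen, the other 20 members took 2.84% to 3.93% of EV libraries and 3.11% to 5.48% of hippocampus libraries. Among EV libraries, library 1 stood apart for miR-215-5p, miR-194-5p and miR-192-5p, library 2 for an X-linked cluster known from testis, and library 3 for its share of miR-148a-3p and for low muscle miRNAs. Their values are given with each group. Among rows with a mean of at least 5 CPM, the counts of 15 pairs differed by at most 5% in each library. These pairs were taken to hold the same reads. With 1 row of each left out, 14 rows went, which held 0.513% to 1.13% of EV counts and 22.3% to 29.4% of hippocampus counts, mostly miR-9b-3p. Pairs outside this rule were kept and may also share reads, such as miR-203-5p and miR-203b-3p. Both had means of 17.5 CPM in EVs and 0.895 CPM in hippocampus.

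EVs and hippocampus differed in most miRNAs that could be tested. Of 519 tested in the fit of all 12 libraries, 412 passed for the chow contrast (79.4%; edgeR quasi-likelihood F test, two-sided, adjusted p under 0.05). Of these, 179 were higher (34.5%) and 233 lower (44.9%) in EVs. The 3 EV libraries and the 3 hippocampus libraries did not overlap for 395 (76.1%). The difference was called and at least 8-fold for 247 (47.6%), 108 of them higher (20.8%) and 139 lower (26.8%). Counts within the lists below are to be read beside 34.5% higher, 44.9% lower and 76.1% without overlap over all tested miRNAs. They leave out listed miRNAs that either table lacks. A member near 0 in EVs or in hippocampus could pass the filter through the other sample type alone. The median log2 difference of all rows tested was -0.52, and it was -0.83 with library totals in place of TMM and -0.27 with DESeq2's size factors (RLE), so small differences have no settled direction. Across the 519 miRNAs, Spearman's rho lay between 0.418 and 0.490 for an EV library beside a hippocampus library, between 0.939 and 0.958 among EV libraries and between 0.962 and 0.982 among hippocampus libraries. These are descriptions across miRNAs, which share their libraries. In bulk samples, fewer cells of a type and less RNA per cell cannot be told apart, and in EVs release from cells adds to both.

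**Figure D1:**
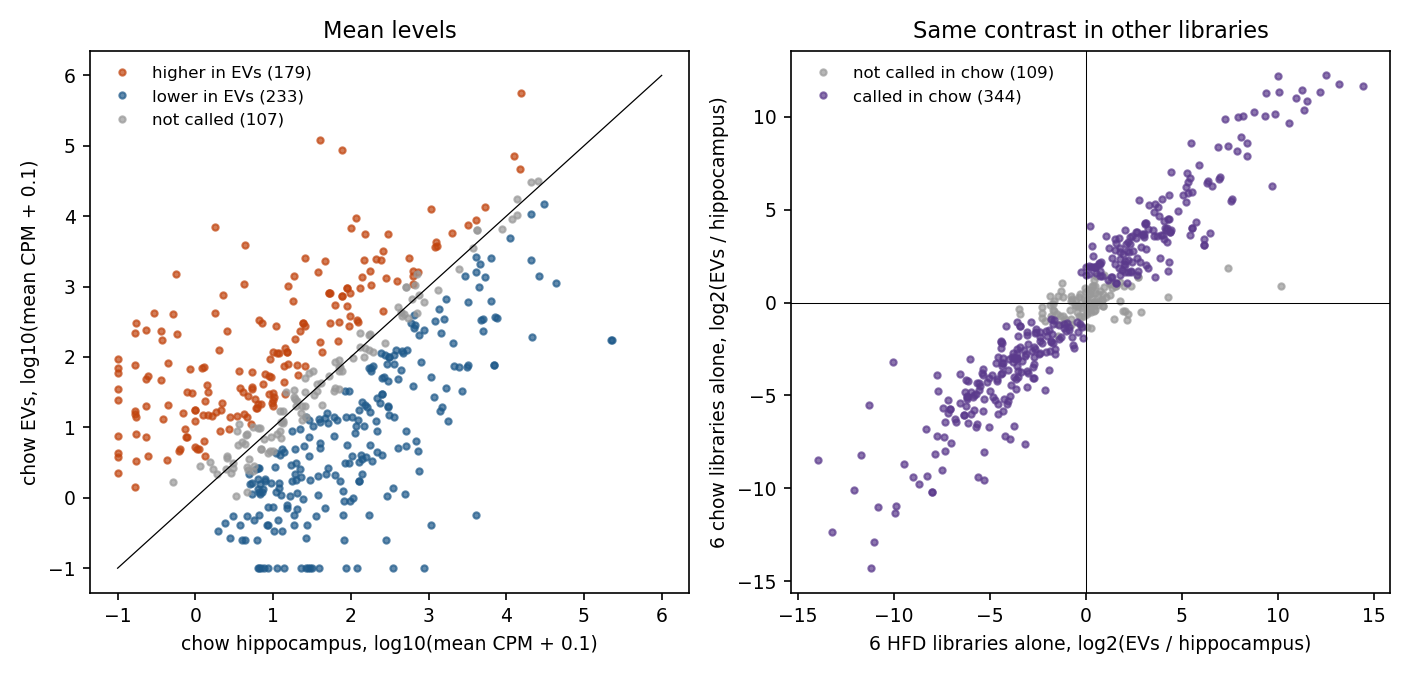
Left, mean level of each of 519 tested miRNAs in chow EVs (vertical) and chow hippocampus (horizontal), as log10(CPM + 0.1), with equal levels on the diagonal; 179 miRNAs were called higher and 233 lower in EVs. Right, log2(EVs / hippocampus) of 453 miRNAs in a fit of the 6 chow libraries alone (vertical) and of the 6 HFD libraries alone (horizontal); the points run from lower left to upper right, and 343 of 344 chow calls have the same sign in both.

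Counts were concentrated in few miRNAs, more so in EVs. The 10 most abundant miRNAs of each library held 78.8%, 78.2% and 84.1% of counts in EV libraries 1 to 3 and 66.4%, 66.1% and 74.4% in hippocampus libraries 1 to 3, where miR-9-5p and its repeat were both counted. It took 28, 29 and 20 miRNAs to reach 90% of counts in EVs, and 43, 40 and 32 in hippocampus. The lists of the 10 most abundant by group shared 3 miRNAs, let-7f-5p, miR-30a-5p and miR-26a-5p. The 10 leading EV miRNAs took 13.5% to 15.2% of the hippocampus libraries, and the 10 leading hippocampus miRNAs took 6.80% to 8.73% of the EV libraries.

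**Figure D2:**
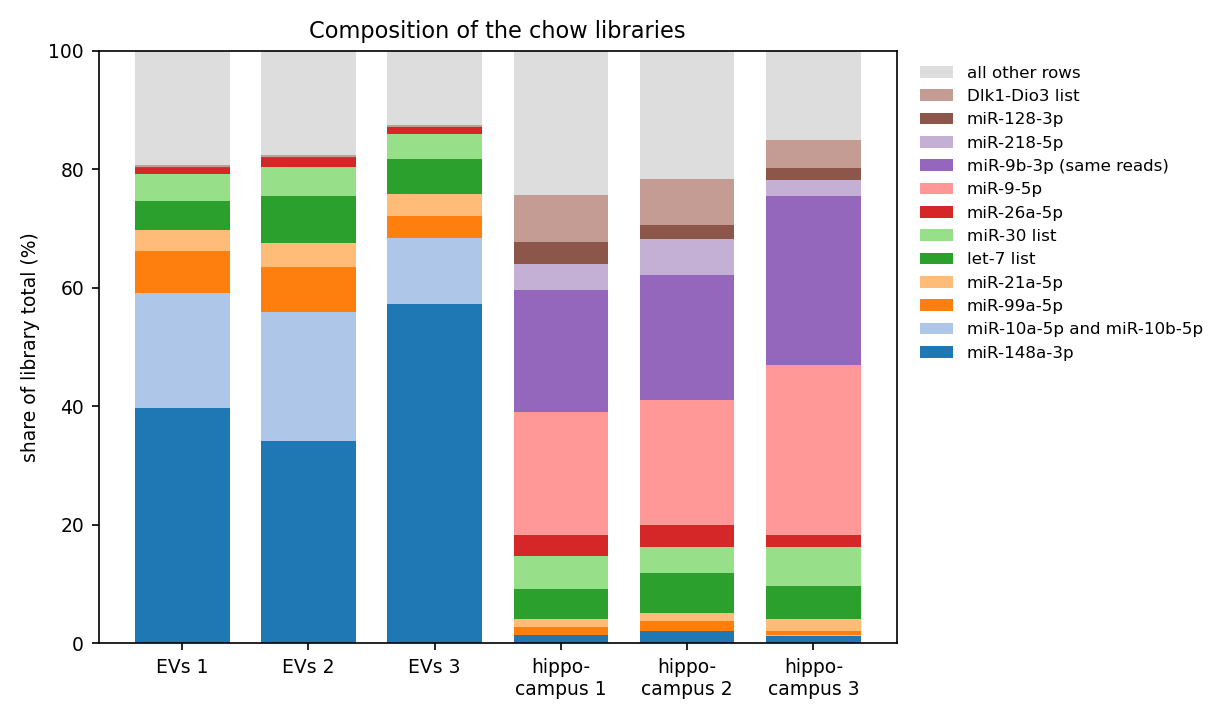
Share of each chow library's total count (%, stacked bars; 3 EV libraries left, 3 hippocampus libraries right) taken by leading miRNAs and miRNA lists. EV libraries are filled mainly by miR-148a-3p (34.1% to 57.2%) and miR-10a-5p with miR-10b-5p, and hippocampus libraries by miR-9-5p (20.7% to 28.6%) with miR-9b-3p, which repeats its reads.

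miR-148a-3p, a miRNA of liver and of differentiating fat cells, was the most abundant in EVs. It stood at 471248, 348409 and 867886 CPM in EV libraries 1 to 3, against 11776, 23111 and 11596 CPM in hippocampus libraries. The groups were far apart, with EV library 3 the highest. Without that library the log2 difference was 4.86. With all libraries the log2 difference was 5.18 (SE 0.44, adjusted p = 3.96e-08). Its hairpin lies between genes on chromosome 6 (51269812 to 51269910, minus strand, GRCm38). The other strand of the duplex, miR-148a-5p, was also higher, at 113, 103 and 180 CPM in EVs against 16.0, 14.8 and 12.1 CPM in hippocampus, a log2 difference of 3.20 (SE 0.38, adjusted p = 1.42e-06).

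The seed of miR-148a-3p took 43.9 ± 12.1% of counts in EVs and 1.66 ± 0.451% in hippocampus (SD, n = 3 each). miR-152-3p, which differs from miR-148a-3p at 3 bases (C9U, U10G and U20G, counted from the 5′ end), was higher in EVs as well, with a log2 difference of 3.29 (SE 0.41, adjusted p = 2.23e-06). miR-148b-3p, with the substitutions C9U and U10C, stood at 433, 443 and 1414 CPM in EVs and 708, 925 and 636 CPM in hippocampus. These groups overlapped, and the log2 difference was 0.012 (SE 0.41, adjusted p = 0.980).

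Among the 21 listed miRNAs tied to fat cells and their differentiation, 13 were higher, 5 were lower and 3 did not pass, with a median log2 difference of 1.99 beside -0.52 for all miRNAs. miR-378a-3p, encoded in the gene of the mitochondrial regulator PGC-1β, had 17859, 11096 and 8973 CPM in EVs against 1268, 1329 and 622 CPM in hippocampus (log2 difference 3.56, SE 0.38, adjusted p = 4.90e-07). No hippocampus library reached the lowest EV library. The higher ones also included miR-27a-3p (4.23), miR-193a-5p (5.13) and miR-455-5p (2.49), the last a miRNA of brown fat cells. Lower were miR-103-3p (-2.42), miR-26a-5p (-1.07), miR-335-3p (-2.75), miR-378a-5p (-1.42) and miR-33-5p (-2.22). miR-26a-5p lost its call in the fit of the 6 chow libraries alone (adjusted p = 0.0907) and with shared reads kept once (0.0615), and the fit of the 6 chow libraries called 2 members lower in place of 5. miR-27b-3p overlapped between the groups and did not pass, at 7099, 5287 and 7325 CPM in EVs and 11120, 11646 and 3791 CPM in hippocampus (-0.43, adjusted p = 0.275). Apart from miR-148a-3p, miR-378a-3p, miR-26a-5p and miR-27b-3p, the members given here were picked after their values were seen.

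The miRNAs of the Hox gene clusters, which lie among the genes that set position along the body axis, stood far higher in EVs. All 7 tested members were higher, and together they took 11.3% to 21.97% of EV counts against 0.00540% to 0.0205% of hippocampus counts. miR-10b-5p had 132884, 131370 and 97820 CPM in EVs against 20.8, 36.1 and 63.8 CPM in hippocampus (log2 difference 11.56, SE 0.74, adjusted p = 4.69e-09). Its hairpin lies in an intron of Hoxd3 and Hoxd4 on chromosome 2 (74726070 to 74726137, plus strand, GRCm38).

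miR-10a-5p, which differs from miR-10b-5p by U12A (miR-10a-5p first), had 98214, 91926 and 73106 CPM in EVs against 26.4, 84.4 and 122 CPM in hippocampus (10.15, SE 0.58, adjusted p = 2.02e-09). Each EV library exceeded every hippocampus library by a wide margin for both, although the rule for the largest differences, which named them, asked for no overlap. The other strands followed. miR-10b-3p held 1698 counts in EVs and 1 in hippocampus, a ratio of pooled counts per TMM-scaled total of 3794 (95% interval 680 to 149942, counting error only). miR-10a-3p held 2255 and 2 counts, a ratio of 2519 (697 to 20815). miR-615-3p, from the Hoxc cluster, had 333, 329 and 36.5 CPM in EVs, with library 3 the lowest, against 3 counts in all of hippocampus, a ratio of 1051 (359 to 5102). The remaining members, miR-196a-5p and miR-196b-5p, held 269 and 295 counts in EVs and 2 each in hippocampus.

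miRNAs known from fibroblasts and smooth muscle were mostly higher in EVs, with 11 of 14 tested higher (34.5% of all miRNAs), 2 lower and a median of 3.27. Their summed share went the other way, at 1.55 ± 0.139% in EVs and 2.16 ± 0.775% in hippocampus (SD, n = 3 each), since it is mostly miR-143-3p. The 4 mature miRNAs of miR-199a and miR-214 were all higher, between 5.12 and 6.62. The transcript Dnm3os carries the miR-199a-2 and miR-214 hairpins. A miR-199a hairpin on chromosome 9, in an intron of Dnm2 on the opposite strand, gives the same miR-199a sequences, and counts do not tell them apart. miR-199a-3p had 1670, 2541 and 3420 CPM in EVs against 23.8, 35.2 and 17.9 CPM in hippocampus (log2 difference 6.62, SE 0.78, adjusted p = 5.69e-06). miR-145a-3p had 1900, 1599 and 801 CPM against 21.9, 22.7 and 10.9 CPM (6.27, SE 0.46, adjusted p = 8.05e-09). Neither overlapped.

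miR-143-3p, a smooth muscle miRNA that shares a transcript with miR-145a, went the other way. It had 12063, 9488 and 10647 CPM in EVs and 23273, 27518 and 11130 CPM in hippocampus, with hippocampus library 3 close to the EVs (-0.94, SE 0.34, adjusted p = 0.0182). This call ended in the fit of the 6 chow libraries (adjusted p = 0.155), with shared reads kept once (0.154), and without EV library 2 or 3 or hippocampus library 1 or 2. The other lower member was miR-322-5p (-1.66), picked after its values were seen.

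Of the endothelial list, whose 4 members are the arms of miR-126a and miR-126b in the gene Egfl7, 3 were lower and 1 was higher. miR-126a-3p had 2683, 2700 and 2628 CPM in EVs against 3791, 5444 and 3043 CPM in hippocampus (-0.62, SE 0.26, adjusted p = 0.0387). The groups did not overlap, but the call was lost in 16 of 22 alternative fits, although the log2 difference was below 0 in all of them. Its adjusted p ranged from 0.00334 to 0.513. miR-126a-5p (-1.63) and miR-126b-3p hold the same reads, and with shared reads kept once 1 member was lower.

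Immune cell miRNAs were higher in EVs for 10 of 12 tested (34.5% of all miRNAs), with none lower and a median of 3.09. miR-146a-5p, which dampens NF-κB signalling, had 4747, 6146 and 5752 CPM in EVs against 179, 140 and 141 CPM in hippocampus (log2 difference 5.18, SE 0.31, adjusted p = 2.02e-09). miR-155-5p, induced in activated leukocytes and encoded in the transcript Mir155hg, had 201, 297 and 777 CPM against 0.650, 2.54 and 1.95 CPM (7.94, SE 0.74, adjusted p = 1.44e-07). miR-142a-5p, a miRNA of blood cells, had 810, 613 and 774 CPM against 43.7, 85.3 and 104 CPM (3.24, SE 0.42, adjusted p = 4.13e-06). None of these overlapped between the groups. Of the 12 tested, 9 did not overlap, beside 76.1% of all miRNAs. The leukocyte miRNAs miR-142a-3p and miR-223-3p were higher by 2.95 and 1.78. The abundant miR-21a-5p, made in many cell types, had a smaller log2 difference of 1.62 (SE 0.26, adjusted p = 3.73e-05). The lymphocyte miRNAs miR-150-5p and miR-342-3p did not pass (-0.57 and -0.74, adjusted p = 0.314 and 0.0880).

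Epithelial miRNAs, which mark no main cell type of fat, were higher in EVs for 16 of 17 tested (34.5% of all miRNAs), at a median of 6.03. Their summed share was 4.66%, 2.43% and 2.64% in EV libraries 1 to 3 and 0.213%, 0.137% and 0.101% in hippocampus libraries, and none of the 18 listed was at 0 in all 3 libraries of a group. The members of the miR-200 family, which hold cells in an epithelial state, led. miR-200c-3p had 4293, 3133 and 4255 CPM in EVs against 3.03, 1.95 and 7.78 CPM in hippocampus (log2 difference 9.91, SE 0.77, adjusted p = 3.96e-08). miR-141-3p, from the same cluster on chromosome 6, had 1517, 1318 and 1680 CPM against 0.217, 0 and 1.17 CPM (12.00, SE 0.96, adjusted p = 5.27e-08).

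The second miR-200 cluster, on chromosome 4, was also detected in hippocampus. miR-200a-3p had 9471, 6222 and 12236 CPM in EVs against 113, 131 and 103 CPM in hippocampus (6.33, SE 0.59, adjusted p = 1.68e-07). For miR-200b-3p the values were 6072, 4972 and 9209 CPM against 89.6, 109 and 102 CPM (6.07, SE 0.55, adjusted p = 1.19e-07). The EV libraries did not overlap with hippocampus for any of these 4. For miR-141-3p and miR-200c-3p, the rule that named the largest differences asked for this. miR-205-5p, a miRNA of squamous and glandular epithelia, was higher by 8.72, and miR-375-3p, of endocrine and gut epithelia, by 5.37 (adjusted p = 9.56e-09 and 9.29e-08; both picked after their values were seen). The part of epithelial cells in the EV samples was not tested.

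The miR-215 and miR-194-1 cluster on chromosome 1, of gut and kidney epithelium, stood apart in a single library. miR-194-5p comes from hairpins on chromosomes 1 and 19, which counts do not tell apart. It had 3460, 287 and 356 CPM in EV libraries 1 to 3, against 159, 160 and 95.4 CPM in hippocampus (3.31, adjusted p = 0.00992). miR-192-5p, of a related cluster, had 3242, 540 and 793 CPM against 806, 926 and 428 CPM, overlapped and did not pass (1.08, adjusted p = 0.146); both were picked after their values were seen. miR-215-5p had 19352, 742 and 972 CPM in EV libraries 1 to 3, against 1.95, 1.56 and 1.56 CPM in hippocampus (log2 difference 11.99, SE 1.86, adjusted p = 1.49e-04). EV library 1 was many times above the other EV libraries, and these were still far above hippocampus. Without EV library 1 the log2 difference of miR-215-5p was 8.94, and 15 members of the epithelial list were called higher.

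A list of 19 miRNAs from X-linked clusters known for expression in testis had 10 tested members, and all 10 were higher in EVs. The other 9 are not in both tables and were not tested. Members with almost no hippocampus counts could enter the test through EVs alone, so 10 of 10 is a description only. Of the 2 clusters themselves 11 miRNAs with a known mature sequence were tested and 11 were higher. The list's summed share was 0.0457%, 0.453% and 0.0604% in EV libraries 1 to 3 and at most 0.000839% in a hippocampus library, where 4 of the 10 were at 0 in all 3. miR-881-3p had 304, 2449 and 491 CPM in EVs against 1.30, 8.01 and 3.11 CPM in hippocampus (7.99, SE 1.16, adjusted p = 7.02e-05). EV library 2 was the highest for each listed member, for instance at 453 CPM for miR-871-3p beside 31.0 and 36.5 CPM in EV libraries 1 and 3. Without EV library 2 the log2 difference of miR-881-3p was 6.52, and all 10 members were still called. Pooled counts of miR-465c-5p were 1343 in EVs and 1 in hippocampus, a ratio of 3001 (95% interval 538 to 118612), and of miR-465b-5p 1436 and 2. The median of the list was 10.28, or 8.22 with members that had 0 counts in a group set at their bound. Whether testis or epididymal tissue had part in the EV samples was not tested.

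Red cell miRNAs took 0.360%, 0.367% and 0.216% of EV libraries 1 to 3 and 0.0332% to 0.0604% of hippocampus libraries. Of 7 tested, 5 were higher in EVs, beside 34.5% of all miRNAs. miR-451a, which red cells hold in large amounts, had 1221, 1128 and 1618 CPM in EVs against 242, 221 and 379 CPM in hippocampus (2.24, SE 0.48, adjusted p = 4.61e-04). The miR-144-3p of the same transcript did not pass (0.51, adjusted p = 0.565). The 3 rows of miR-486, an erythroid and muscle miRNA, share reads and were higher by 3.91 to 3.97. Liver was represented by miR-122-5p, at 354, 285 and 277 CPM in EVs against 51.5, 9.77 and 12.1 CPM in hippocampus (3.63, SE 0.54, adjusted p = 1.65e-05). Hippocampus library 1 was the highest of its group, and without it the log2 difference was 4.88.

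Muscle miRNAs were higher for 4 of 6 tested (34.5% of all miRNAs), and for 2 in the fit of the 6 chow libraries, with EV library 3 the lowest EV library for each. miR-206-3p, of skeletal muscle, had 138, 217 and 18.6 CPM in EVs against 1.73, 3.32 and 0.778 CPM in hippocampus (5.91, SE 1.27, adjusted p = 0.00123). miR-1a-3p, of heart and skeletal muscle, had 1401, 1353 and 222 CPM against 559, 515 and 447 CPM. Its groups overlapped through EV library 3, and it did not pass (0.97, SE 0.89, adjusted p = 0.333). Without that library the log2 difference was 6.59 for mmu-miR-206-3p and 1.55 for mmu-miR-1a-3p (adjusted p = 0.0677). The muscle list took 0.153%, 0.177% and 0.0183% of EV libraries 1 to 3 and 0.0490% to 0.0671% of hippocampus libraries. In these bulk samples the parts of blood, liver and muscle RNA were not tested.

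Every tested member of the neuron list, 27 of 27, was lower in EVs (44.9% of all miRNAs), at a median of -6.25 (-6.18 with bounds). For each the groups did not overlap, beside 76.1% of all miRNAs. miR-9-5p, which guides neural progenitors and neurons, had 148, 106 and 277 CPM in EVs against 183719, 236417 and 259912 CPM in hippocampus (log2 difference -10.32, SE 0.73, adjusted p = 1.20e-08). Its sequence comes from 3 hairpins, on chromosomes 3, 7 and 13, which counts do not tell apart. The row miR-9b-3p repeats it at -10.33.

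miR-124-3p, the best known neuronal miRNA, held 3 counts in the EV libraries and 55984 in hippocampus, a ratio of pooled counts per TMM-scaled total of 8352-fold lower (95% interval 2858 to 40500.2). In hippocampus it had 6482, 4491 and 1189 CPM, with library 3 the lowest. miR-137-3p, which acts in neuronal maturation, held 1 and 3401 counts (1522-fold lower, 273 to 60138). miR-873a-5p, from an intron of Lingo2 on chromosome 4, was at 0 in all 3 EV libraries and at 493, 419 and 121 CPM in hippocampus, at least 706-fold lower with 3 counts allowed over the EV libraries. miR-488-3p, from an intron of Astn1, was lower by a log2 difference of -9.04, miR-153-3p, from an intron of Ptprn2, by -8.24, and miR-7b-5p by -8.32. miR-384-5p held 2 counts in EVs and 2045 in hippocampus (458-fold lower, 127 to 3781).

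Other neuronal miRNAs were lower in EVs, some of them while still well detected there. miR-218-5p, made from introns of Slit2 and Slit3, had 1045, 921 and 1424 CPM in EVs against 38256, 66805 and 24505 CPM in hippocampus (-5.26, SE 0.43, adjusted p = 2.16e-08). miR-128-3p, from introns of R3hdm1 and Arpp21, had 2048, 1728 and 464 CPM against 33626, 27778 and 18638 CPM (-4.24, SE 0.47, adjusted p = 6.67e-07). miR-129-5p was lower by -6.51 (SE 0.46). The smallest difference on the list was that of miR-135a-5p, at 77.1, 48.7 and 190 CPM against 235, 379 and 468 CPM (-1.78, SE 0.51, adjusted p = 0.00436). The activity-linked miR-132 and miR-212, which share a hairpin cluster on chromosome 11, were lower in all 4 arms, between -7.16 and -5.36. Their mean EV levels were low, at 12.4 CPM for miR-132-5p and 19.5 CPM for miR-132-3p. For miR-212-5p and miR-212-3p they were 3.40 and 0.909 CPM, near or below the floor. miR-135a-5p and these arms were picked from the list after their values were seen.

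Oligodendrocyte miRNAs were lower for 5 of 5, at a median of -6.16. miR-219a-2-3p, which promotes myelinating oligodendrocytes, was at 0 in each EV library and at 999.7, 1032 and 613 CPM in hippocampus, at least 1712-fold lower. miR-219b-5p was also at 0 in EVs and at 139, 192 and 30.4 CPM in hippocampus, at least 254-fold lower. miR-338-5p, from an intron of Aatk, had 9.31, 15.1 and 6.44 CPM against 143, 148 and 59.5 CPM (-3.49, SE 0.47, adjusted p = 6.20e-06).

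The list for choroid plexus and ependyma was mixed, with 5 of 8 higher, 1 lower and a median of 2.21. The lower one, miR-1298-5p, lies in an intron of Htr2c, the serotonin receptor gene of choroid plexus, on the X chromosome (147064905 to 147065002, plus strand, GRCm38). It held 2 counts in EVs and 14380 in hippocampus (3218-fold lower, 95% interval 891 to 26573.6). The higher ones were miR-34b, miR-34c and miR-449a arms, made in ciliated cells and testis, and miR-204-3p. miR-34b-3p had 44.0, 163 and 70.9 CPM in EVs against 14.1, 10.4 and 2.72 CPM in hippocampus (3.33, SE 0.58, adjusted p = 7.21e-05), again with EV library 2 the highest. miR-34c-5p overlapped, at 586, 1500 and 1025 CPM against 1038, 504 and 472 CPM, and did not pass (0.63, adjusted p = 0.175), though it passed in 3 of 22 alternative fits. miR-204-5p, at 461, 380 and 437 CPM against 658, 980 and 510 CPM, did not pass either (-0.75, adjusted p = 0.0629), and passed in 3 of 22, among them that with library totals (-1.06, adjusted p = 0.0125).

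The imprinted Dlk1-Dio3 locus on chromosome 12 holds a large miRNA cluster expressed from 1 parental allele, and is active in brain. Of 59 tested miRNAs listed for it, 58 were lower in EVs and 1 was higher, at a median of -4.17 (-3.96 with bounds). The locus took 0.212%, 0.301% and 0.178% of EV libraries 1 to 3 and 7.94%, 7.65% and 4.69% of hippocampus libraries. miR-127-3p, encoded opposite an exon of Rtl1, had 190, 190 and 189 CPM in EVs against 26470, 28095 and 10009 CPM in hippocampus (-6.83, SE 0.42, adjusted p = 2.02e-09). For miR-381-3p the values were 300, 307 and 457 CPM against 8654, 8765 and 5396 CPM (-4.42, SE 0.32, adjusted p = 5.77e-09). For miR-379-5p they were 256, 424 and 361 CPM against 5341, 7156 and 2711 CPM (-3.87, SE 0.37, adjusted p = 1.44e-07). None overlapped.

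The member of the locus that was higher, miR-494-3p, had 23.3, 40.4 and 19.3 CPM in EVs against 2.60, 4.88 and 6.62 CPM in hippocampus (2.59, SE 0.48, adjusted p = 1.20e-04), and was picked after its values were seen. In the genome, 32 hairpins of the locus follow each other within 10 kb steps and gave 47 tested miRNAs with a known mature sequence, 46 of them lower. All 3 plus-strand groups of hairpins there, which hold miRNAs outside the list, gave 69 such miRNAs. Of these, 66 were lower, 1 was higher and 2 were not called.

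**Figure D3:**
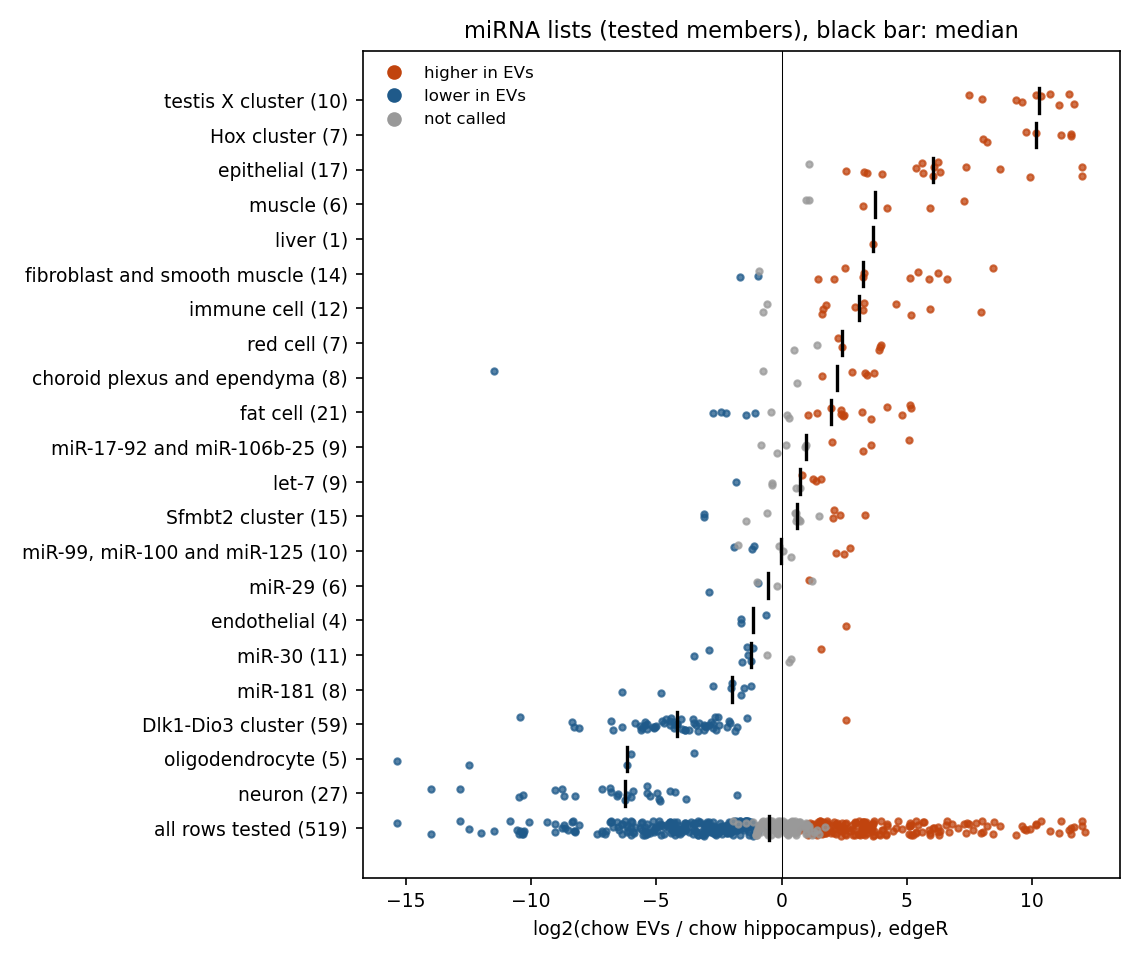
log2(chow EVs / chow hippocampus) of each tested member of 21 miRNA lists and of all 519 tested miRNAs (edgeR), coloured by call, with the median as a black bar. The testis X cluster and Hox cluster lie at the right (medians 10.28 and 10.15), and the neuron, oligodendrocyte and Dlk1-Dio3 lists at the left (-6.25, -6.16 and -4.17), beside -0.52 for all miRNAs. Members at 0 counts in a group are drawn at their fitted value.

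Several widely expressed families did not move as 1 group. For let-7, which favours differentiation, 4 of 9 tested were higher (34.5% of all miRNAs), 1 was lower (44.9% of all) and 4 did not pass. The family's share of counts was 6.27 ± 1.55% in EVs and 5.84 ± 0.911% in hippocampus. let-7c-5p had 10050, 14085 and 16722 CPM in EVs against 4245, 6852 and 4703 CPM in hippocampus (1.37, SE 0.29, adjusted p = 4.80e-04). let-7f-5p, the most abundant, overlapped and did not pass (0.57, SE 0.29, adjusted p = 0.0760), though it passed in 10 of 22 alternative fits. let-7e-5p was lower, at 180, 325 and 223 CPM against 895, 940 and 760 CPM (-1.83, SE 0.33, adjusted p = 1.01e-04; picked after its values were seen). These miRNAs have 1 seed in common.

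The miR-99 and miR-100 seed was split as well. miR-99a-5p, encoded with let-7c-1 in Mir99ahg on chromosome 16, had 84272, 77405 and 54846 CPM in EVs against 12276, 18653 and 7127 CPM in hippocampus (2.51, SE 0.35, adjusted p = 8.73e-06). miR-100-5p, which differs from it by U16A, had 5479, 3845 and 5494 CPM against 11833, 13640 and 8263 CPM (-1.19, SE 0.27, adjusted p = 8.72e-04). miR-99b-5p had 1763, 1540 and 915 CPM against 2654, 3694 and 2610 CPM (-1.09, SE 0.30, adjusted p = 0.00343), a call that ended in the fit of the 6 chow libraries (adjusted p = 0.142) and with shared reads kept once (0.0814). None of the 3 overlapped between the groups. Of the 10 tested members of the miR-99, miR-100 and miR-125 list, 3 were higher and 3 lower.

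The miR-25 and miR-92 seed gave another split. miR-25-3p, from an exon of Mcm7, had 2983, 2452 and 2004 CPM in EVs against 202, 281 and 148 CPM in hippocampus (3.56, SE 0.32, adjusted p = 8.12e-08), and miR-92a-3p was higher by 3.25. miR-92b-3p, with the same seed, had 19.1, 31.2 and 10.02 CPM against 351, 392 and 164 CPM (-3.89, SE 0.48, adjusted p = 2.06e-06; picked after its values were seen). miR-93-5p, which shares the Mcm7 transcript with miR-25, did not pass, at 112, 109 and 184 CPM against 154, 148 and 161 CPM (-0.20, adjusted p = 0.594). Its log2 difference was 0.031 in the fit of the 6 chow libraries (adjusted p = 0.942) and 0.033 with shared reads kept once (adjusted p = 0.921).

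Of the miR-30 family 1 of 11 was higher and 7 were lower, at a median of -1.21. miR-30e-5p had 2432, 1999 and 3333 CPM in EVs against 5339, 5501 and 8523 CPM in hippocampus (-1.32, SE 0.29, adjusted p = 6.84e-04), and miR-30c-5p was lower by -1.12 (SE 0.28). All 8 tested miR-181 miRNAs were lower, at a median of -1.99, with miR-181a-5p at -1.97 (SE 0.34, adjusted p = 6.91e-05) and miR-181a-1-3p, the other strand of 1 of its hairpins, at -6.36 (SE 0.45, adjusted p = 5.29e-09). Of the miR-29 family, which targets collagen messages, miR-29a-3p was higher (1.09, SE 0.26, adjusted p = 0.00112) and miR-29b-3p lower (-0.94, SE 0.35, adjusted p = 0.0223). The call of miR-29b-3p ended in the fit of the 6 chow libraries (adjusted p = 0.135), with shared reads kept once (0.0692) and without hippocampus library 2 (0.0530) or 3 (0.0563). miR-29c-3p did not pass (-0.18, adjusted p = 0.636), and its sign turned in several fits. The miR-17-92 and miR-106b-25 list had 4 of 9 higher and none lower, and the Sfmbt2 cluster, a repeat-rich miRNA cluster on chromosome 2, 4 of 15 higher and 2 lower. Over all miRNAs 34.5% were higher and 44.9% lower.

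Among miRNAs of at least 1000 CPM in both groups, 5 differed least. miR-30a-5p had 27765, 24722 and 41168 CPM in EVs and 27783, 22632 and 26349 CPM in hippocampus (0.29, SE 0.29, adjusted p = 0.373; -0.11 with library totals). miR-125b-5p had 4457, 3473 and 2544 CPM and 3515, 4844 and 2807 CPM (-0.092, SE 0.29, adjusted p = 0.770), and its sign turned in 6 fits other than those that leave out a library, up to 0.28. The others were miR-30d-5p (0.37), let-7g-5p (-0.37) and let-7i-5p (-0.39). With library totals both let-7 members passed, let-7g-5p at -0.74 (adjusted p = 0.0147) and let-7i-5p at -0.73 (0.0108). Calls were also gained by let-7g-5p without EV library 3 (-0.70, adjusted p = 0.0376) and miR-30d-5p without hippocampus library 3 (0.81, adjusted p = 0.0312). For each the groups overlapped, with standard errors of 0.28 to 0.32 on the log2 scale.

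The balance of the arms of a hairpin does not depend on library scaling and was tested for 143 hairpins with both arms measured. It differed for 68 (47.6%; edgeR diffSpliceDGE, adjusted p under 0.05), toward the 5p arm in EVs for 32 (22.4%) and toward the 3p arm for 36 (25.2%). The leading arm was another one in EVs than in hippocampus for 30 hairpins, 19 of them called. Among those called, both arms reached 20 CPM in a sample type for 11. miR-335, whose hairpin sits within an intron of Mest, an imprinted gene on chromosome 6 (30741299 to 30741396, plus strand, GRCm38), was the clearest of the abundant ones. Counts of its 5p arm divided by those of its 3p arm gave 6.69, 6.33 and 13.6 in EV libraries 1 to 3 and 0.289, 0.253 and 0.439 in hippocampus libraries, a log2 change of 4.74 (adjusted p = 2.21e-08). In levels, miR-335-5p was higher (1.99) and miR-335-3p lower (-2.75) in EVs.

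The myeloid miR-223 also changed its leading arm. Its ratio was 7.29, 4.79 and 1.75 in EVs and 0.250, 0.321 and 0.121 in hippocampus (4.15, adjusted p = 0.00105), where it rests on few counts, since miR-223-3p had 0.866, 5.47 and 12.8 CPM there. miR-145a changed in the opposite sense, at 0.112, 0.161 and 0.657 in EVs and 4.64, 3.79 and 16.2 in hippocampus (-4.81, adjusted p = 1.13e-07). Both arms of miR-145a were higher in EVs, the 3p arm far more so. For miR-181c the 5p arm led in EVs and the 3p arm in hippocampus, with ratios of 3.56, 19.0 and 3.80 in EVs and 0.530, 0.568 and 0.733 in hippocampus (3.20, adjusted p = 1.75e-04). For all 4 hairpins the libraries of the sample types did not overlap.

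In other hairpins the same arm led by a different margin. The ratio of miR-9 was 2.39, 2.23 and 2.51 in EVs and 126, 87.6 and 115.0 in hippocampus (-5.45, adjusted p = 2.21e-08). The EV libraries held miR-9-3p at 62.1, 47.3 and 110 CPM. miR-143 (4.18), miR-221 (-3.49), miR-151 (-3.46), miR-409 (-3.40) and miR-27a (-3.19) changed as well, with 3p leading in each. The rows of miR-9b (9.30) and miR-126b (4.22) are affected by reads shared with miR-9-5p and miR-126a-5p. The called hairpins miR-338 (2.68) and miR-3065 (-2.43) also share reads of 1 arm. The called hairpins miR-136 (2.64) and miR-3071 (-2.20) may do so too. Mean levels of miR-136-3p and miR-3071-5p were 76.5 and 71.5 CPM in EVs, and 3204 and 3154 CPM in hippocampus. A difference can thus enter the counts of called hairpins more than once, and in both directions. No arm fit was made with shared reads kept once. With limma on log2 ratios, and with each of the 12 libraries left out in turn, all 12 named hairpins kept their direction.

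**Figure D4:**
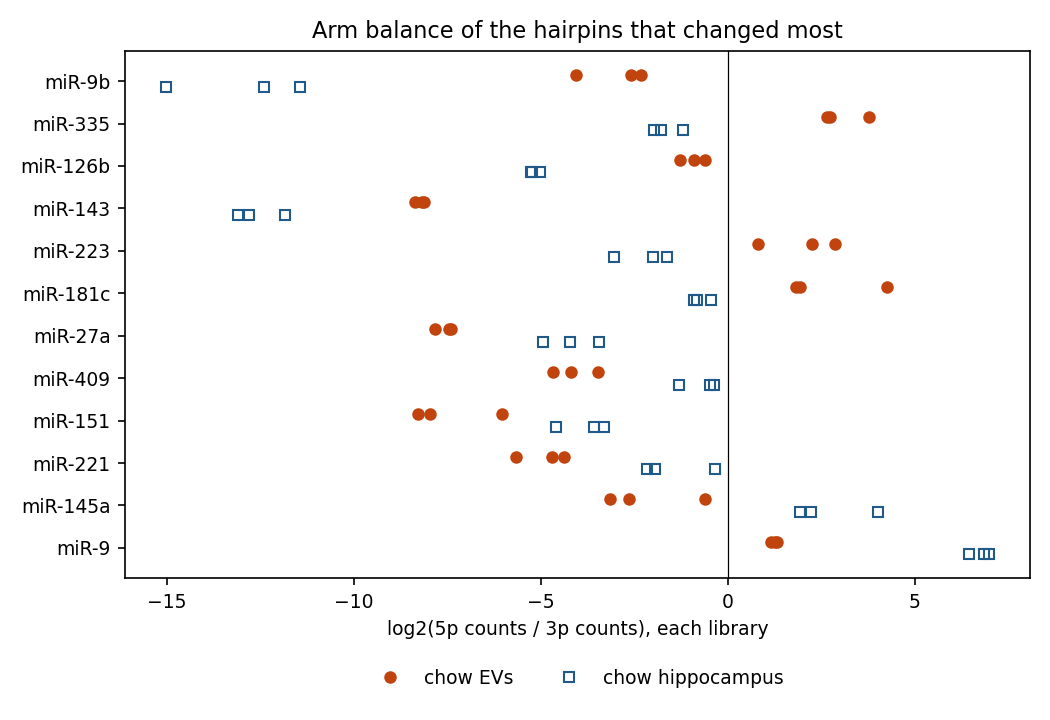
log2 of the ratio of 5p to 3p counts in each chow library (filled circles, EVs; open squares, hippocampus) for the 12 hairpins whose balance changed most among those with both arms at 20 CPM or more. miR-335, miR-223 and miR-181c lie right of 0 (5p leading) in EVs and left of 0 in hippocampus, and miR-145a the other way round.

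Clusters were formed from hairpins within 10 kb of each other on 1 strand, over the 448 tested miRNAs with a mature sequence. Of 43 clusters, 19 had every such member called in the same direction, 11 higher and 8 lower in EVs. In 6, members were called in both directions. Tested miRNAs without a sequence were left out. Among them is miR-34c-5p, which did not pass, while its cluster counts as higher. These cluster counts are a description beside the 79.4% of all miRNAs called: arms of 1 hairpin count as members, and 1 of the 8 lower clusters has a single miRNA with a sequence. The higher ones included miR-199a-2 with miR-214, both miR-200 clusters, miR-182 with miR-96 and miR-183, miR-224 with miR-452 in Gabre, and both X-linked testis clusters. Lower ones included miR-132 with miR-212 and miR-181a-1 with miR-181b-1. Clusters that held both directions included that of miR-99b, let-7e and miR-125a on chromosome 17, where miR-125a-5p was higher (2.16) and miR-99b-5p and let-7e-5p were lower. Mature sequences that come from several hairpins were counted in each.

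Mature sequences were found for 448 of the 519 tested miRNAs (86.3%) and described without a test. The median length was 22 bases in those higher in EVs, those lower and those not called. The median GC content was 45.5% in those higher, 47.6% in those lower and 45.6% over all. The tetramer GGAG, read on the mature strand at any position, stood in 10 of 155 miRNAs higher in EVs (6.45%), in 19 of 211 lower and in 37 of all 448 (8.26%), and CCCU in 6.45%, 8.53% and 7.37%. Both tetramers belong to motifs reported for sorting into EVs in other cell types, and a match here is only a match of letters.

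The contrast was also fitted on the chow libraries alone and on the HFD libraries alone, with no library in common. In a fit of the 6 chow libraries alone 345 of 454 were called (76%), and in a fit of the 6 HFD libraries alone 453 of 555 (81.6%). Over 453 miRNAs tested in both, 344 were called in chow, and 343 of these had the same sign in HFD. With the same sign and called in both were 319, which is 92.7% of the chow calls and 84.4% of the 378 HFD calls, and 0 were called with opposite signs. The exception in sign was miR-339-5p, at 1.63 in chow and -0.26 in HFD (adjusted p = 0.487). miR-10b-5p stood at 11.78 in chow and 13.17 in HFD, miR-200c-3p at 10.06 and 9.32, and miR-9-5p at -10.17 and -8.02. HFD hippocampus libraries were deeper than the chow ones, and the diets were not compared here.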

How the data were processed

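Small RNA libraries of adipose EVs and hippocampus were analysed from read counts per miRNA that the authors deposited, 1 table per sample type, per the file headers, with no normalisation. Of tools, the submitters' processing notes name Bowtie, with no version given. The build, annotation and counter are each not given in the sources used here. The hippocampus columns headed LFD were taken as chow. The hippocampus table holds 1 further HFD column, which matched no sample and was not used, and 5 rows blank in HFD hippocampus were left out. The EV table holds 1038 known and 46 predicted miRNAs.

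Counts of the 852 shared rows in all 12 libraries, with each table's full total as library size, were filtered (filterByExpr), scaled (TMM) and fitted with edgeR 4.0.16 (glmQLFit robust, glmQLFTest) in R 4.3.3, and p-values were adjusted by Benjamini-Hochberg over the 519 rows tested. DESeq2 1.42.0 and limma 3.58.1 served as alternatives. Arm balance used diffSpliceDGE. Scripts were tested on simulated data. Groups at 0 counts were given a bound of 3 counts over the group, and those with 1 to 3 counts a ratio with its exact 95% interval. Both used pooled counts over TMM-scaled totals and reflect counting error alone. Chi-square per degree of freedom between replicates was 89.8 to 740, so no replicate pair agreed within sampling noise.

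The comparison, the lists and the members were chosen with earlier results of these data known. Named were the 12 largest differences each way (at least 100 CPM, no overlap), the 10 most abundant miRNAs per sample type, 4 abundant members per list, the 5 smallest differences among miRNAs of at least 1000 CPM in both groups, 6 hairpins per direction and the 5 most abundant rows of 1 table alone. Any others were picked after their values were seen. Hairpin positions come from RefSeq and host genes from GENCODE M21, both GRCm38.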

Additional observations from a re-analysis of the deposited data

How the results depend on the processing

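All 126 alternative counts over all miRNAs or hairpins were within 1.5 times the values reported. Of 924 alternative counts for the 21 lists, 27 were not, over 12 counts: in the fit of the 6 chow libraries lower fat cell members were 2 in place of 5 and higher muscle members 2 in place of 4, and with shared reads kept once lower endothelial members were 1 in place of 3; with library totals lower let-7 members were 3 in place of 1, and each of the other 8 counts moved by 1 member. Calls in chow ranged from 345 (the 6 chow libraries alone) to 455 (no filter), and from 392 to 427 with each of the 12 libraries left out in turn. Called arm ratios ranged from 54 to 76, and miRNAs called in both diets with 1 sign from 310 to 371. The labels do not say whether equally numbered libraries came from 1 mouse. Deviations from the group mean correlated at 0.052, 0.084 and 0.193 for equally numbered chow libraries and at 0.086, 0.068 and -0.057 for HFD ones. Not every sample correlated best with its own number. These values cannot decide the pairing, because EVs and hippocampus of 1 mouse need not deviate together. With the replicate block 403 miRNAs and 68 hairpins were called. Of 105 named miRNAs and hairpins, 18 changed a call or sign somewhere. Signs turned for miR-30a-5p (mmu-miR-30a-5p, -0.11 with totals), for mmu-miR-125b-5p (0.14 with RLE and with DESeq2, 0.037 with a filter of at least 10 CPM in 3 libraries, 0.28 with the 6 chow libraries, 0.27 with shared reads kept once, 0.095 without miR-148a-3p, miR-9-5p and miR-9b-3p, and -0.30 to 0.23 with a library left out), for mmu-miR-29c-3p (0.042 with RLE, 0.041 with DESeq2, 0.17 with the 6 chow libraries, 0.16 with shared reads kept once, and -0.21 to 0.048 with a library left out), for mmu-miR-93-5p (0.031 with the 6 chow libraries and 0.033 with shared reads kept once) and for mmu-miR-499-5p (-0.098 to 1.66 with a library left out, the lowest without EV library 1). A left-out library moved 32 called values by over 1.5-fold with no call or sign lost, 21 of them with over 3 counts in both groups or an arm ratio. Beside those in the report these were miR-10b-5p (12.25), miR-10a-5p (10.84), miR-200c-3p (10.77), miR-141-3p (13.69), miR-7b-5p (-7.44) and the arms of miR-221 (-2.85) and miR-223 (3.47) without hippocampus library 3, miR-488-3p (-9.84), miR-153-3p (-9.39), miR-155-5p (7.32), mmu-miR-338-3p (-5.54), both miR-467 rows (-4.20) and the arms of miR-145a (-5.75), miR-151 (-4.24), miR-223 (5.03) and miR-9b (10.09) without EV library 3, miR-141-3p (11.32) and the arms of miR-223 (4.95) and miR-9b (10.42) without hippocampus library 2, and miR-34b-3p without EV library 2 (2.64) or hippocampus library 1 (3.96). The cause was not tested. Depth limits miRNAs under about 3 counts per library, and rows held by 1 table could not be compared.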

Other observations

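Rows that only 1 of the tables lists were left out of the comparison. The EV table alone held 231 rows, 163 of them with counts in chow EVs, which took 0.0159% to 0.0775% of a library. The most abundant were miR-743b-3p, at 26.6, 188 and 24.1 CPM of the library total in EV libraries 1 to 3, miR-471-5p (12.2, 93.9 and 34.0), miR-743a-3p (12.6, 99.7 and 5.66) and miR-465a-3p (14.4, 82.2 and 5.19). All 4 belong to X-linked clusters of testis and were highest in EV library 2, as were the 10 tested members of the X-linked list. The next, miR-194-1-3p, had 63.2, 1.35 and 4.72 and was highest in EV library 1, like miR-215-5p.

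The hippocampus table alone held 306 rows, 214 of them with counts in chow hippocampus, which took 0.0682% to 0.122% of a library. The most abundant were miR-383-5p, at 255, 239 and 89.2 CPM of the library total in hippocampus libraries 1 to 3, miR-384-3p (108, 95.7 and 94.4), miR-124-5p (146, 77.6 and 59.6), miR-124b-3p (145, 76.7 and 59.2) and miR-1298-3p (72.0, 78.1 and 57.5). Several of these are the other arms of miRNAs that were close to 0 in EVs. Counts of miR-124-5p (598, 444 and 139) and miR-124b-3p (595, 439 and 138) were nearly equal, so these rows may hold the same reads. A row missing from a table has no value there and was given none.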
